A study of Ovis aries with 6 samples.

Results

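The Toll-like receptors TLR1 to TLR8 were followed in sheep skin through every array probe designed on a sheep RefSeq mRNA of these 8 genes. They had 14 probes among the 15008 non-control probes of the array, and 8 of the 476 genes that could be named. The tissue was skin of its full thickness from 12-month-old Aohan fine wool sheep, with 3 samples from the body side, which bears wool, and 3 from the groin, which does not. The animals were 1 untreated ram and 2 untreated ewes that shared a father and were kept in pens; each gave skin from both sites. Replicate 1 is the ram and replicates 2 and 3 are the ewes. Each RNA sample, labelled with Cy3, went on 1 Agilent array of a single colour.

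Toll-like receptors are membrane proteins that sense molecules of microbes. TLR2, paired with TLR1 or TLR6, senses bacterial lipopeptides at the cell surface; TLR4 senses lipopolysaccharide and TLR5 flagellin. TLR3 senses double-stranded RNA, and TLR7 and TLR8 single-stranded RNA, inside endosomes. Most of them signal through the adaptor MYD88, TLR3 through TICAM1 and TLR4 through both, to transcription factors that induce cytokines, chemokines and interferons. In skin they are known from keratinocytes as well as from macrophages, dendritic cells and mast cells. Since whole skin was measured, fewer cells of a type and less RNA per cell cannot be told apart.

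The body side arrays were dimmer than the groin arrays. Their processed signals, compared at the 75th percentile, were 2.97-fold brighter in the groin (log2 difference -1.57, two-sided exact permutation p = 0.1, which is the smallest possible with 3 against 3 arrays). All groin arrays were read in 1 scan and all body side arrays in a different one; the effects of site and scan cannot be told apart in the differences below. A level here is the log2 processed signal after subtraction of that array's 75th percentile, and a difference is body side minus groin on that scale. Between 10730 probes (body side replicate 1) and 14053 probes (groin replicate 3) were well above background; body side replicate 2, with 13384, stood above its group. Of 13278 tested probes, 69.9% passed a limma adjusted p of 0.05, 36.8% as higher and 33.0% as lower on the body side. All 8 tested wool follicle markers (among them the keratins KRT35, KRT27 and K38) were higher on the body side, by 1.94 to 4.98.

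Of the 14 probes, 13 entered the test, 10 of them well above background on all 6 arrays. On the body side 6 were called lower (46.2% of the 13, against 33.0% of all tested probes) and 2 higher (15.4%, against 36.8%), and 5 did not pass. Entry through the groin arrays alone, which can tilt calls towards lower, held for 3 of the 13 (of TLR5, TLR7 and TLR8). With a filter on all 6 arrays, 5 of 10 TLR probes and 28.1% of all tested probes were called lower. The share of lower calls was larger among dim probes. In the groups of like signal that held the 13, described below, 38.9% to 48.6% were called lower and 20.3% to 31.0% higher. A lower call of at least 2-fold was made for 5, where 22.8% of all tested probes had one. These were both TLR3 probes, the TLR4 probe, and 1 probe each of TLR2 and TLR7. The TLR7 probe was well above background on only 1 body side array, so the size of its fall is not well measured. The median difference of the 13 was -0.51, that of all tested probes 0.10, and those of the like-signal groups ran from -0.43 to -0.11. Counted by the brightest probe of each gene, TLR3 and TLR4 were lower, TLR1 and TLR7 were higher, and TLR2, TLR5, TLR6 and TLR8 did not pass. Counted in the same way, 25.6% of all 442 named tested genes were called lower and 44.8% higher. By gene, lower calls were thus not more frequent among the receptors than among named genes. The lower call of TLR3 held on both of its probes, while TLR4 had only 1 probe, which leaves nothing to compare. For TLR2, TLR6 and TLR7 the probes of a gene gave different calls. Groups without overlap were seen for 9 of the 13 (69.2%), and for 75.1% of all tested probes.

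**Figure D1:**
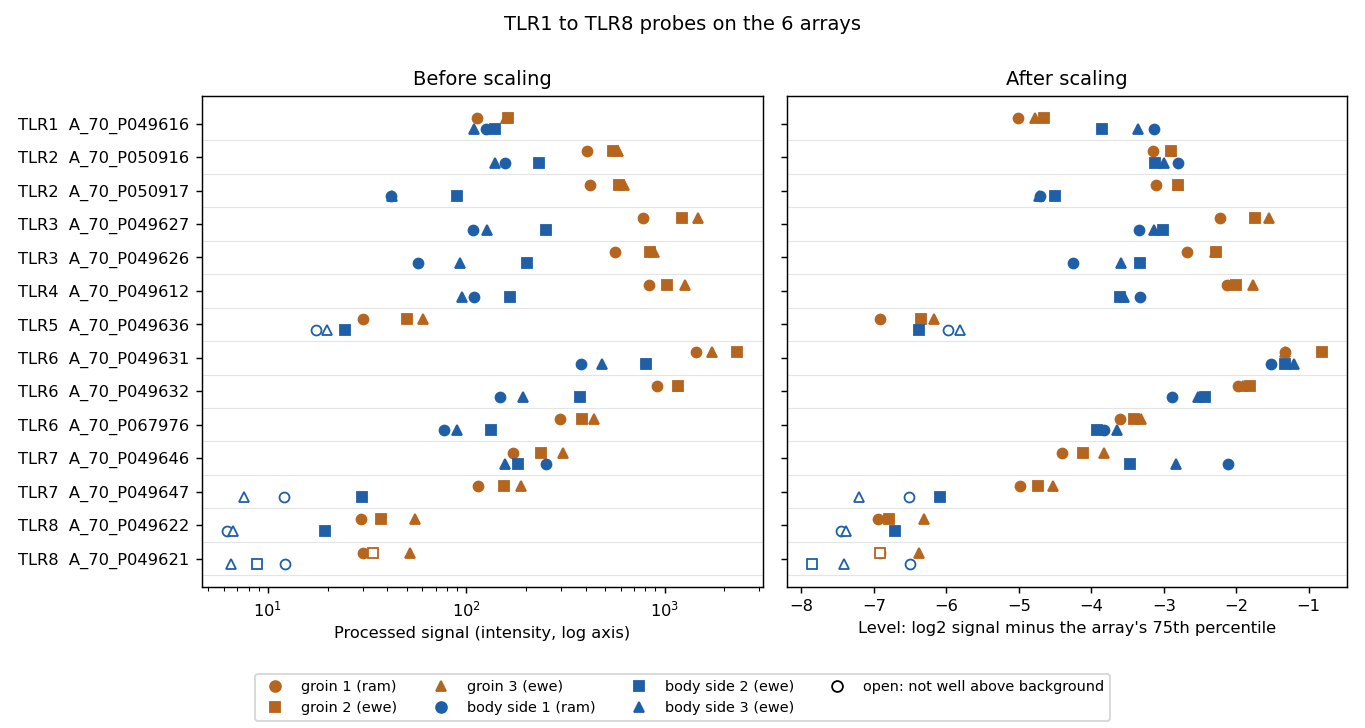
Each row is a probe of TLR1 to TLR8. The left panel shows the processed signal (intensity, log axis) and the right panel the level (log2, relative to the array's 75th percentile); points are single arrays, brown for groin and blue for body side, with shapes for the replicate, and open points are not well above background. On the left, the TLR4 signals lie between 832 and 1274 in the groin and between 95.5 and 166 on the body side, whereas the TLR1 signals of both sites overlap; on the right, TLR4 is lower and TLR1 higher on the body side, without overlap.

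Among the receptors of the cell surface, TLR4 had the lower level on the body side. Its only probe, A_70_P049612 (mRNA NM_001135930), was at -2.12, -2.00 and -1.77 in groin replicates 1 to 3 and at -3.32, -3.61 and -3.55 on the body side. All 3 body side arrays lay below all 3 groin arrays, with a gap of 1.20 between the groups. The groin mean was -1.97 ± 0.18 and the body side mean -3.49 ± 0.15 (SD, n = 3 each), a difference of -1.53 ± 0.18 SE or 2.88-fold (limma adjusted p = 1.63e-04). The body side signals, from 95.5 to 166 in intensity, were well above background on all 3 arrays.

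TLR2, the shared partner of TLR1 and TLR6, had 2 probes on the same mRNA (NM_001048231) that differed in their calls. The brighter, A_70_P050916, is printed as 5 spots on each array. Its level was -3.15, -2.91 and -2.90 in the groin and -2.81, -3.12 and -3.00 on the body side, so the groups overlapped. The difference was 0.01 ± 0.17 SE (95% interval from -0.38 to 0.40, limma adjusted p = 0.957). It passed as higher with quantile normalization (0.44), median centring (0.46) and the deposited log2 values (0.43). Single spots without an outlier flag spread with an SD from 0.060 to 0.43 within an array, and the medians of the spots gave a difference of -0.0034. The other probe, A_70_P050917, was close to the first in the groin, at -3.11, -2.80 and -2.81, but lay at -4.71, -4.50 and -4.73 on the body side. Its groups were 1.39 apart, the difference was -1.74 ± 0.17 SE or 3.34-fold (limma adjusted p = 8.27e-05), and all 6 arrays were well above background.

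TLR1, which with TLR2 senses triacylated lipopeptides, was the surface receptor with the higher level on the body side. Its probe A_70_P049616 (NM_001135060) was at -5.01, -4.66 and -4.77 in the groin and at -3.13, -3.86 and -3.35 on the body side. The ram's body side sample was the highest and that of replicate 2 the lowest of its group, and the groups did not overlap. The difference was 1.36 ± 0.22 SE or 2.57-fold (limma adjusted p = 8.26e-04). This rise rests on the scaling between arrays: the processed signals themselves were 113, 163 and 159 in the groin and 125, 139.98 and 109 on the body side, a log2 difference of -0.20, since the scaling adds 1.57 to the difference of every probe.

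TLR6, which with TLR2 senses diacylated lipopeptides, had 3 probes on its mRNA NM_001135927, and 1 of them passed. The brightest, A_70_P049631, was at -1.32, -0.82 and -1.33 in the groin and at -1.53, -1.32 and -1.21 on the body side, and its groups overlapped (difference -0.19 ± 0.20 SE, 95% interval from -0.65 to 0.27, limma adjusted p = 0.407). A_70_P049632 was at -1.98, -1.81 and -1.90 in the groin and at -2.89, -2.44 and -2.54 on the body side. Its groups lay 0.45 apart, with a difference of -0.72 ± 0.18 SE (limma adjusted p = 0.00684), a call that ended with quantile normalization, cyclic loess, median centring, the deposited log2 values and without replicate 3. A_70_P067976 was at -3.61, -3.41 and -3.31 in the groin and at -3.83, -3.93 and -3.64 on the body side, with a gap of 0.03 between the groups. It differed by -0.36 ± 0.17 SE and did not pass (limma adjusted p = 0.0924, 95% interval from -0.75 to 0.035). In the gene table TLR1 stands between TLR10 and TLR6. TLR1 and TLR6 are close paralogues, and whether their probes bind each other's RNA was not tested.

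TLR5, the flagellin receptor, was among the dimmest members. Probe A_70_P049636 (NM_001135926) was at -6.91, -6.35 and -6.17 in the groin, all well above background, and at -5.97, -6.38 and -5.82 on the body side, where only replicate 2 was. The groups overlapped, and the difference of 0.42 ± 0.24 SE did not pass (limma adjusted p = 0.155, 95% interval from -0.14 to 0.98). It passed as higher with normexp background correction, a model of signal over local background (1.21), and with median centring (0.87). Normexp was run with an offset of 50 added to every signal, which draws dim signals of both sites together before the scaling. The processed signals of this probe were 17.4 to 24.4 on the body side and 30.2 to 60.4 in the groin. Its normexp value is thus no measure of a rise of TLR5.

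Among the receptors of nucleic acids, TLR3 was lower on the body side by both of its probes (NM_001135928). A_70_P049627 was at -2.22, -1.75 and -1.55 in the groin and at -3.34, -3.01 and -3.13 on the body side, a difference of -1.32 ± 0.21 SE or 2.49-fold (limma adjusted p = 8.08e-04). A_70_P049626 was at -2.68, -2.28 and -2.30 in the groin and at -4.26, -3.33 and -3.59 on the body side, a difference of -1.31 ± 0.26 SE or 2.47-fold (limma adjusted p = 0.00224). Neither probe had groups that overlapped, with gaps of 0.78 and 0.65, and all 6 arrays were well above background. The groin sample of the ram was the lowest of its group on both probes, and so was its body side sample.

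TLR7, a sensor of single-stranded RNA, gave opposite calls on its 2 probes (NM_001135059). The brighter, A_70_P049646, was at -4.40, -4.11 and -3.83 in the groin and at -2.12, -3.47 and -2.83 on the body side, and was well above background on all 6 arrays. Its difference was 1.31 ± 0.33 SE or 2.48-fold higher (limma adjusted p = 0.00727), without overlap. As with TLR1, the processed signals of the sites overlapped before scaling, at 172, 237 and 306 in the groin and 252, 183 and 157 on the body side, a log2 difference of -0.26. The dimmer probe, A_70_P049647, was at -4.98, -4.73 and -4.52 in the groin and at -6.52, -6.09 and -7.21 on the body side, a difference of -1.86 ± 0.29 SE or 3.62-fold lower (limma adjusted p = 6.37e-04). On the body side only replicate 2 read that probe well above background, at a signal of 29.9 against 12.0 and 7.56 on the other arrays. With normexp, under the limit given for TLR5, its difference turned to 0.18 and the call ended.

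TLR8, the neighbour of TLR7 in the gene table and another sensor of single-stranded RNA, was near background. A_70_P049622 (NM_001135929) was at -6.94, -6.79 and -6.31 in the groin and at -7.46, -6.72 and -7.39 on the body side, where only replicate 2 was well above background. Its difference was -0.51 ± 0.26 SE and did not pass (limma adjusted p = 0.11, 95% interval from -1.10 to 0.085), and neither its size nor its direction is settled: it passed with cyclic loess as lower (-1.02) and with normexp as higher (1.14). It passed as lower without body side replicate 2 too, but that leaves only body side arrays at background, so the value is no measure of TLR8. The normexp value carries the limit given for TLR5. A_70_P049621, on the same mRNA, was well above background on 2 groin arrays and on no body side array, and was not tested. It read -6.91, -6.92 and -6.38 in the groin and -6.50, -7.85 and -7.42 on the body side, which overlap. The groin mean of its measured values was -6.74 ± 0.31 and the body side mean -7.26 ± 0.69 (SD, n = 3 each).

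The disagreement between probes of a gene was itself compared, as the within-array difference of each of the 7 possible pairs of probes. For TLR7, the brighter probe exceeded the other by 0.58 to 0.69 on the groin arrays and by 2.62 to 4.39 on the body side arrays, so that their site differences were 3.16 apart. That size is not well measured, since the dimmer probe was not well above background on body side replicates 1 and 3; with normexp the differences were 1.22 and 0.18. For TLR2 the same quantity ran from -0.11 to -0.042 in the groin and from 1.38 to 1.90 on the body side, 1.75 apart, with all 6 arrays well above background on both probes; with normexp the differences were 0.40 and -0.61. For TLR6 the brightest pair, A_70_P049631 and A_70_P049632, was 0.53 apart, also without overlap. Each of these 3 pairs reached the smallest p that the design allows (exact permutation test, two-sided p = 0.1, 0.233 after Benjamini-Hochberg adjustment over 7 pairs). The site differences of the 2 TLR3 probes were -0.01 apart (exact permutation p = 0.9).

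**Figure D2:**
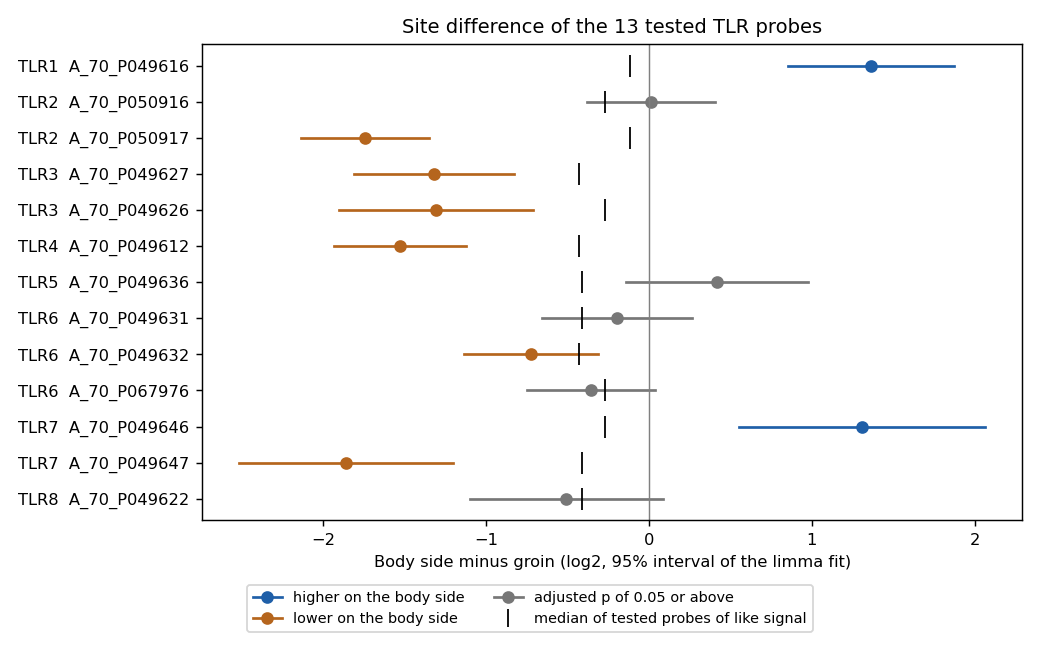
Site difference (body side minus groin, log2) of the 13 tested probes, with the 95% interval of the limma fit; blue is called higher, brown lower and grey neither, and the black tick is the median difference of tested probes of like signal. Both TLR3 probes and the only TLR4 probe lie below 0, from -1.53 to -1.31, while the TLR7 probes lie on opposite sides, at 1.31 and -1.86.

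The site difference of any probe moved with its brightness, so the members were also set beside probes of like signal. All tested probes were put in 10 equal groups by mean level, and the group medians ran from -0.43 in the fifth group to 1.13 in the brightest. All 13 tested TLR probes lay in the 6 dimmer groups, whose medians were between -0.43 and 0.06. TLR4, in the fifth group, was below its group's median of -0.43; 21.0% of that group had a smaller difference, and 48.6% of it was called lower. The lower TLR2 probe had 17.7% of its group below it, the brighter TLR3 probe 26.4% and the dimmer TLR7 probe 17.4%. On the other side, 91.6% of like probes had a smaller difference than TLR1 and 92.5% a smaller one than the brighter TLR7 probe. Of the 13 TLR probes, 8 lay below the median of their group.

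**Figure D3:**
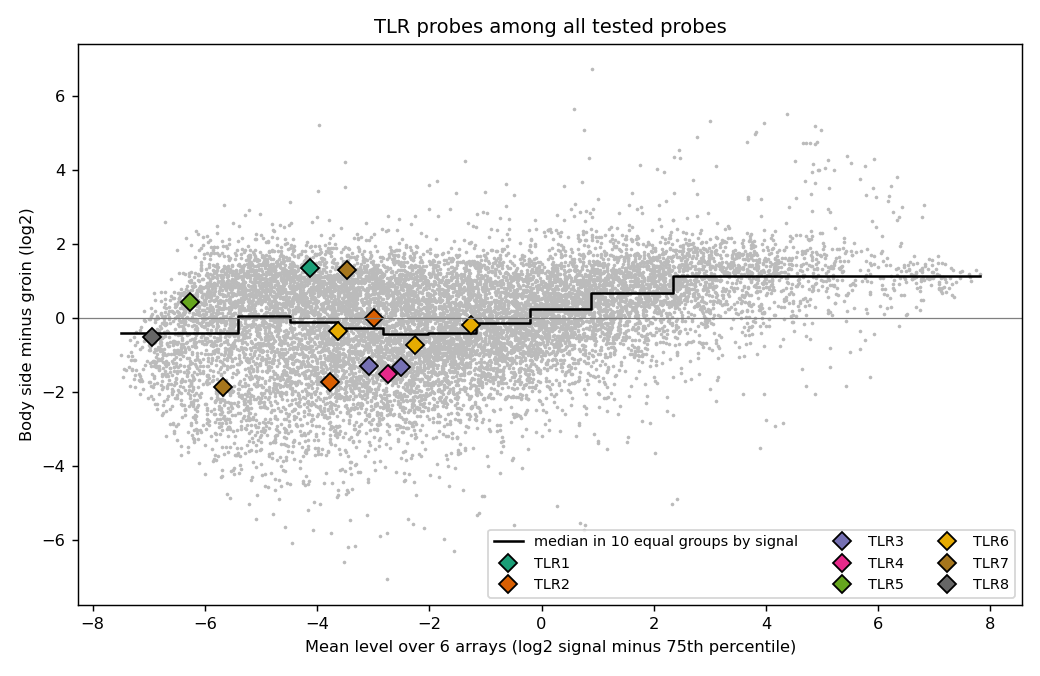
Site difference (body side minus groin, log2) against mean level over the 6 arrays for all 13278 tested probes (grey), with the median in 10 equal groups by signal (black line) and the 13 TLR probes (diamonds, coloured by gene). The TLR probes lie within the cloud, with TLR1 and a TLR7 probe above the line and the TLR3, TLR4, the other TLR7 and a TLR2 probe below it.

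The calls differed in how they held under other settings. The lower calls of TLR4, both TLR3 probes and A_70_P050917 of TLR2 stood under all 20 alternatives. With normexp the differences were smaller, -0.94 for TLR4, -0.85 and -0.72 for the TLR3 probes and -0.61 for the TLR2 probe, while all probes shifted up by 0.36 in the median. The lower call of A_70_P049632 of TLR6 ended under 4 alternatives (quantile normalization, cyclic loess, median centring and the deposited values) and without replicate 3, and that of the dimmer TLR7 probe with normexp. The higher calls of TLR1 and A_70_P049646 of TLR7 stood under every alternative except no scaling. Leaving out the scaling moves every probe alike by -1.57, so lower calls cannot turn there and any rise under that size must. It put all 13 tested TLR probes below 0, and the median of all tested probes at -1.47.

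**Figure D4:**
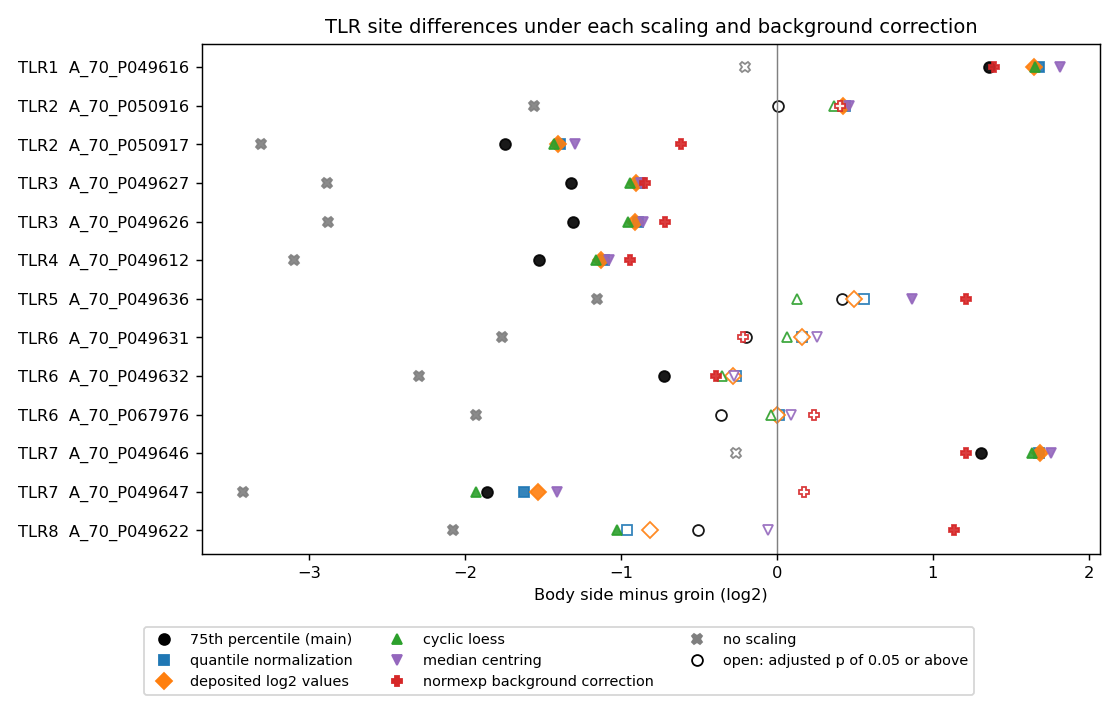
Site difference (body side minus groin, log2) of each tested TLR probe under the main scaling, 4 other scalings or deposited values, normexp background correction and no scaling; open symbols have an adjusted p of 0.05 or above. TLR3 and TLR4 stay below 0 in all 7 settings, whereas TLR1 turns from 1.36 to -0.20 without scaling and the dimmer TLR7 probe from -1.86 to 0.18 with normexp.

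Each sex was sampled at both sites, which allowed a comparison of the site difference in the ram with that in the ewes. The ram is 1 animal with 1 array per site, so sex and individual cannot be told apart. No TLR probe passed (limma interaction term, lowest adjusted p = 0.361), where 0.105% of all tested probes did. At an unadjusted p under 0.05 there was 1, the brighter TLR7 probe: its difference was 2.28 in the ram and 0.82 in the ewes, a contrast of 1.46 ± 0.48 SE (limma unadjusted p = 0.0118). Of the tested members, that probe also had the widest spread on the body side, with an SD of 0.67 over 3 arrays, where the median SD of the tested TLR probes was 0.24.

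The named genes whose levels followed a member most closely over the 6 arrays were found by the root mean square difference of mean-centred levels, over 441 other genes and the brightest probe of each. TLR4 lay nearest to SLC25A11, the mitochondrial oxoglutarate carrier (0.019), and to SELE, the endothelial adhesion molecule E-selectin (0.067), where the median over all genes was 1.02. TLR3 lay nearest to BCKDHA, of branched-chain amino acid breakdown (0.081), and TPM1, a tropomyosin (0.12). TLR1 lay nearest to EGR1, an immediate early transcription factor (0.070), and EPO, erythropoietin (0.073). TLR7 lay nearest to CSF2, a myeloid growth factor (0.20), and MX1, an interferon-induced antiviral protein (0.22), both 2.46-fold and 2.56-fold higher on the body side. The nearest were SLC25A20 (0.10) and LOC654331 (0.11) for TLR2, FAS (0.14) and SLC25A17 (0.19) for TLR6, PAEP (0.145) for TLR5, and SFXN1 (0.15) and AIMP2 (0.17) for TLR8. Over 6 arrays in 2 groups such likeness depends largely on the size of the site difference.

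Other genes of the pathway were taken from 7 lists, of which 5 had tested members. Of 29 tested genes, 13 (44.8%) were called higher and 9 (31.0%) lower on the body side, where 44.8% and 25.6% of all 442 named tested genes were. The median difference was 0.11 against 0.39 over all named tested genes. Of the coreceptors and accessory proteins, BGN, a matrix proteoglycan that can act as a ligand of TLR2 and TLR4, was lower by its only probe (-0.86 ± 0.19 SE, limma adjusted p = 0.00327). CD14, the lipopolysaccharide coreceptor of TLR4, was named after its values were seen; it did not pass by its brightest probe (-0.49 ± 0.30 SE, limma adjusted p = 0.167), and its other probe was called lower (-0.90).

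Of 4 adaptors and kinases, 1 rose and 1 fell. RAC1, a small GTPase, was 3.15-fold higher (1.65 ± 0.21 SE, limma adjusted p = 2.56e-04; 0.086 without scaling), and AKT1, a kinase of survival signalling, 4.32-fold lower (-2.11 ± 0.21 SE, limma adjusted p = 8.37e-05). The RAC1 probe was in the brightest of the 10 signal groups, with a median difference of 1.13 and 78.0% called higher. Its difference was smaller with quantile normalization (0.43), cyclic loess (0.37) and the deposited log2 values (0.45). MYD88 and IRAK4, the shared adaptor and the kinase it recruits, were also named after their values were seen. MYD88 had a groin mean of -3.74 ± 0.26 and a body side mean of -4.49 ± 1.00 (SD, n = 3 each) and did not pass (limma adjusted p = 0.161). IRAK4 differed by -0.02 ± 0.21 SE by its brighter probe (limma adjusted p = 0.941), and its other probe was called lower (-1.45).

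Among the transcription factors, FOS and IRF1 fell. FOS, a subunit of AP-1, differed by -2.90 ± 0.34 SE (limma adjusted p = 1.79e-04) and IRF1, an interferon regulatory factor, by -1.60 ± 0.22 SE (limma adjusted p = 3.48e-04); on the body side FOS was above background on 1 array and IRF1 on 2. With normexp these differences were -1.16 and -0.21. Of 4 inhibitors 2 rose: IL10, an anti-inflammatory cytokine, by 0.76 ± 0.16 SE, and ZFP36, which speeds the decay of cytokine mRNA, by 1.18 ± 0.18 SE. Both were below 0 without scaling, at -0.81 and -0.38, and a further ZFP36 probe was called lower (-3.32).

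Of 16 tested targets of the pathway, 10 rose, 4 fell and 2 did not pass, with a median difference of 1.07. Of all named tested genes, 44.8% were called higher and 25.6% lower, with a median of 0.39. Without scaling, CXCL8 (0.89) and TNF (0.030) stayed above 0, and all other targets called higher fell below 0. CXCL8, a neutrophil attractant, was 5.51-fold higher (2.46 ± 0.20 SE, limma adjusted p = 3.95e-05) and the cytokine TNF 3.03-fold higher (1.60 ± 0.18 SE, limma adjusted p = 1.39e-04). Some targets called higher had a further tested probe. That of CXCL8 was called higher (2.76), those of CD86 and IL12A were not called, and that of PTGS2 was called lower (-1.38). IL1A, another cytokine, was 4.34-fold lower (-2.12 ± 0.23 SE, limma adjusted p = 1.37e-04) and SELE 2.83-fold lower (-1.50 ± 0.18 SE, limma adjusted p = 1.74e-04). TLR9 had 2 probes, well above background on 2 and 1 groin arrays and on 1 and 0 body side arrays, and was not tested.

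Markers of cells that could carry these receptors gave mixed calls, where 44.8% of all named tested genes were called higher and 25.6% lower. Of 4 tested monocyte and macrophage markers (CD14, FCGR1A, ITGAM and LYZ), 1 was called lower by its brightest probe, FCGR1A at -0.89 ± 0.19 SE, and 3 did not pass. Further probes of ITGAM (-3.02) and CD14 (-0.90) were called lower, and that of LYZ did not pass (-0.80). The summed level of these 4 ran from -0.12 to 0.23 on the body side and from 0.48 to 0.80 in the groin. Of 3 mast cell markers, TPSB2, a tryptase, fell (-1.28 ± 0.17 SE) by its brightest probe. FCER1A rose (0.43 ± 0.16 SE) and LOC101107261 did not pass (-0.89 ± 0.37 SE). The other tested probes of TPSB2 and LOC101107261 were called lower, and that of FCER1A lay below 0 but was not called (-0.59). The summed level of these 3 ran from 0.48 to 0.72 on the body side and from 1.38 to 1.53 in the groin. Both tested endothelial selectins fell, SELE as above and SELP at -0.70 ± 0.16 SE, and of 5 T and NK lymphocyte markers 4 rose, among them CD3E by 1.62 ± 0.17 SE, and CD247 fell (-1.19 ± 0.22 SE). These rises rest on the scaling too. Without it CD3E was at 0.051, and CD3D (-0.21), CTLA4 (-0.97), GNLY (-0.68) and the mast cell marker FCER1A (-1.14) were below 0. None of the neutrophil, dendritic cell or keratinocyte markers had a named probe. The part of any of these cells in the TLR differences was not tested.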

How the data were processed

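Per the file headers, Agilent Feature Extraction 10.5.1.1 made the intensity values, and its processed signal is corrected for background and trends within an array but not between arrays. The authors also deposited log2 values, all with a median of 8.31; their normalization is not given in the sources used here. Control and outlier-flagged spots were left out, and spots of a probe averaged on the log2 scale. A probe was well above background where over 50% of its spots were, and was tested where that held on all 3 arrays of a site with at least 2 values per site (13278 probes; 1730 set aside). The fit was limma 3.58.1 in R 4.3.3 (lmFit, eBayes, Benjamini-Hochberg over all tested probes, threshold 0.05), tested on simulated data. Those data had few changed probes and no difference in array brightness, unlike the arrays here, so they say nothing on the scaling. The number of arrays limits precision; intervals are at 95%.

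Groups and replicate numbers came from the titles. Whether a number stands for 1 ewe across both sites is not stated for replicates 2 and 3, so the fit has no block. It therefore leaves out that each animal gave skin from both sites. Deviations of same-numbered arrays correlated at 0.16, 0.089 and -0.088, and those of the other pairs from -0.24 to 0.16. With 3 arrays per site these values cannot show whether the numbers mark pairs. Names came from RefSeq accessions in a gene table of ARS-UI_Ramb_v3.0 (734 probes matched, 14274 did not); the files name no build, so no coordinates are given. All TLR probes are named. From each pathway list up to 4 called genes by smallest adjusted p are named, or else 1, with the 2 nearest genes of each receptor; some results under this rule are not reported here. The members and lists were chosen with earlier results of these data known. Alternatives were other background corrections, scalings, filters, variance models, a replicate block, sex as a term and leave-outs.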

Additional observations from a re-analysis of the deposited data

How the results depend on the processing

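Over 20 alternatives the counts of called TLR probes moved most with no scaling, median centring and normexp. Cyclic loess left them at 2 and 6, but A_70_P049632 of TLR6 lost its lower call there and A_70_P049622 of TLR8 gained one (-1.02). The 2 higher calls became 4 with median centring, 4 with normexp and 0 without scaling, and the 6 lower calls became 11 without scaling. The median difference of all tested probes shifted by 0.36 with normexp, 0.45 with median centring, -0.11 with cyclic loess and -1.57 without scaling. Higher calls were 52.7% of all calls, 68.4% with normexp and 68.1% with median centring. Without scaling the sign turned for TLR1 (-0.20), the brighter TLR2 probe (-1.56), TLR5 (-1.15) and the brighter TLR7 probe (-0.26). With normexp it turned for A_70_P067976 of TLR6 (0.24), the dimmer TLR7 probe (0.18) and TLR8 (1.14). The last 2 had body side processed signals of at most 29.9 and 19.3, below the normexp offset of 50. That offset draws dim signals of both sites together, so the turns of these 2 do not measure a direction. A_70_P049631 of TLR6 was above 0 with cyclic loess (0.068), quantile normalization (0.16), median centring (0.26) and the deposited values (0.16). A_70_P067976 was too with median centring (0.093), quantile normalization (0.014) and the deposited values (0.0047). The cause was not tested. Leaving out arrays, the brighter TLR2 probe ran from -0.16 to 0.12, lower TLR calls from 5 to 7 and all called probes from 6553 to 9745; the call of A_70_P049632 ended without replicate 3 (adjusted p = 0.061, from 3.16e-04 to 0.197 over its alternatives). With the replicate number as a block, 9217 probes were called in place of 9276, and the TLR counts stayed at 2 and 6. The ram against ewes test called 0 TLR probes under 5 alternatives chosen after seeing the data. TLR5, TLR8 and the dimmer TLR7 probe are limited by signal: 1 body side array read each above background.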
